A study of Mus musculus with 6 samples.

Results

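The cytochrome P450 genes are described here in the pylorus of mouse embryos at E18.5 labelled knockout or wildtype for Nkx3-2 (Bapx1 in the labels), which encodes a homeodomain protein of the gut mesenchyme. Members are the genes whose symbol is Cyp followed by a number, a letter and a number, without the Cyp26 genes. The arrays carry 66 such genes with 76 probes, among 18507 genes that could be named. Of these 66, 58 read above background on at least 3 arrays and were tested, among 16764 tested genes. The study measured total RNA of 3 knockout embryos and 3 wildtype littermates, 1 embryo per one-colour CodeLink array with biotin-labelled cRNA. The parents of both groups were Bapx1 CRE/+ heterozygotes, and embryos were sorted by genotype from yolk sac DNA. The tissue was the distal stomach with a short piece on either side of the pyloric stricture, so the sample holds stomach, sphincter and the first intestine in proportions that the labels do not give. Strain, sex and the construction of the allele are not given in the labels. The animal codes place the embryos in 3 litter pairs, each with 1 embryo of either label. Pair 1 was imaged at another time and on another slide series than pairs 2 and 3, and the 2 sets are called batch A and batch B.

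Cytochrome P450 enzymes are heme proteins that insert an oxygen atom into their substrates, with electrons passed on by P450 oxidoreductase or, in mitochondria, by ferredoxin. Families 1, 2 and 3 oxidise drugs, plant compounds and many steroids. Family 4 and the Cyp2j genes oxidise fatty acids and eicosanoids, while other families make steroid hormones, bile acids and active vitamin D. In the adult gut, P450 enzymes are found mainly in the absorptive cells of the small intestine, where they meet food compounds before the liver does.

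Promoter sequence was read for 5 members that the results name, to show whether letters bound by gut and liver regulators or by NK homeodomain factors are present. Each window runs from 250 bases before to 50 bases after the RefSeq start of the gene in GRCm38.p6. Cyp4f15 is the member with the smallest p. Cyp3a25, Cyp2c70 and Cyp2d26 are members with higher levels in arrays labelled knockout, and Cyp2c55 is an arachidonic acid hydroxylase known from mouse colon. Capitals mark matches on either strand to CAAAGT, the core of sites of the nuclear receptor HNF4, to GTTAAT, an arm of the palindrome bound by HNF1, and to TAAGTG, a site of NK homeodomain proteins.
Cyp4f15: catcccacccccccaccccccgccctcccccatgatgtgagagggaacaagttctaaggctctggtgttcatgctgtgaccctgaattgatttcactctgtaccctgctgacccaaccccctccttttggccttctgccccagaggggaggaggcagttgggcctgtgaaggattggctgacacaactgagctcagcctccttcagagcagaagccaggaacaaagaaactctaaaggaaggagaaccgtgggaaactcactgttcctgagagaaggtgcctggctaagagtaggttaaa
Cyp3a25: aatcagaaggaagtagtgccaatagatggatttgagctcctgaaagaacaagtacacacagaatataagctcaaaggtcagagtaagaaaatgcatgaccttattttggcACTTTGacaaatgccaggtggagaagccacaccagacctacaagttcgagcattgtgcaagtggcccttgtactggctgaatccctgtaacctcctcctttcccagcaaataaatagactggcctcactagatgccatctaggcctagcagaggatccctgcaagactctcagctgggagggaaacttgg
Cyp2c70: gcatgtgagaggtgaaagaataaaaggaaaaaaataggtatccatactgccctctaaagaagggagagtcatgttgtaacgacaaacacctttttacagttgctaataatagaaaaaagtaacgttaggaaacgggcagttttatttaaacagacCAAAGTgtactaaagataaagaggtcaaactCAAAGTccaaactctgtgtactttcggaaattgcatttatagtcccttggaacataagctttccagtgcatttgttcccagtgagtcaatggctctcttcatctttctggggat
Cyp2d26: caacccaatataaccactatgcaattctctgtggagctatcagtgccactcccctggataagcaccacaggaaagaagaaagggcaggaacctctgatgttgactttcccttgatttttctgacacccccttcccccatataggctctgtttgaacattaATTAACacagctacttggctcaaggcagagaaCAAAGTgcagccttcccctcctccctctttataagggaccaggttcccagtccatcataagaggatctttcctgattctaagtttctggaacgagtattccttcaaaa
Cyp2c55: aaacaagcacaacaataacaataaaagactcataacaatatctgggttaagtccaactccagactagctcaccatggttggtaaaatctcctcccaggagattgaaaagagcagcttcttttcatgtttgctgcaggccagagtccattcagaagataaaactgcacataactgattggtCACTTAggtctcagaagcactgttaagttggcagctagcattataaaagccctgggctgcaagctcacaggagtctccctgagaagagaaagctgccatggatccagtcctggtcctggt
These windows lie at chr17:32685409-32685708 (plus strand, Cyp4f15), chr5:146009569-146009868 (minus strand, Cyp3a25), chr19:40187237-40187536 (minus strand, Cyp2c70), chr15:82794196-82794495 (minus strand, Cyp2d26) and chr19:39006769-39007068 (plus strand, Cyp2c55). Counted from 1 at the 5′ end, CAAAGT or its reverse complement starts at base 111 of Cyp3a25, at bases 156 and 187 of Cyp2c70 and at base 193 of Cyp2d26. The reverse complement of GTTAAT starts at base 161 of Cyp2d26 and that of TAAGTG at base 181 of Cyp2c55. None of the 3 sets of letters is in the window of Cyp4f15, and no matches overlap in the printed windows. Of 2 windows listed for Cyp3a25, the first is shown.

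For the 27025 genes with a promoter window of that length, the first window was searched on either strand. It held CAAAGT in 14.3% of genes, GTTAAT in 7.2% and TAAGTG in 9.34%. Windows were found for 50 of the 66 members. Of these, 20 held CAAAGT (40.0%), 3 held GTTAAT and 3 held TAAGTG. The 20 are 7 Cyp2c genes and Cyp20a1, Cyp2a4, Cyp2b13, Cyp2b9, Cyp2d26, Cyp2j9, Cyp3a11, Cyp3a16, Cyp3a25, Cyp3a44, Cyp46a1, Cyp4f18 and Cyp8b1. Those with TAAGTG are Cyp2b19, Cyp2c55 and Cyp2j12. Neighbouring P450 genes arose by duplication, so their promoters are not independent, and a match is a description of letters only. The motifs and these 5 genes were chosen after values were seen.

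On quality, the median spot signal above background lay between 204 and 207 in batch A and between 109 and 131 in batch B. Between 13.2% and 16.7% of gene probes were near background and between 0.418% and 3.34% were flagged as faulty. Nkx3-2 read 7.89 ± 0.16 in arrays labelled knockout and 7.77 ± 0.26 in arrays labelled wildtype (SD, n = 3 each; log2 intensity), a difference of 0.12 (SE 0.19). Its pair differences were 0.27, 0.27 and -0.19. No source used here says whether the probe covers what the allele changes, so this level checks nothing, and every direction below rests on the labels alone. Genes that mark the stomach and smooth muscle had high log2 summed levels on all 6 arrays, of 16.74 to 17.38 and 16.38 to 16.79. These sums include saturated probes, among them the smooth muscle genes Actg2 (3 arrays) and Acta2 (1 array). The gastric gene Sox2 was not bright, at 5.99 to 6.61, and was near background on 2 arrays. Alb, the liver albumin gene, read 12.82 in knockout replicate 1 and between 6.80 and 8.58 on the other 5 arrays. In such pieces of tissue, fewer cells of a type and less RNA per cell cannot be told apart.

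No P450 gene differed between arrays labelled knockout and wildtype after adjustment over all genes. The smallest adjusted p of the 58 was 1 in limma's moderated test with Benjamini-Hochberg adjustment, with 0 of 58 members and 0 of 16764 genes (0%) under 0.05. At an unadjusted p under 0.05, limma gave 4 of the 58 members and 192 of all genes (1.15%). These 4 were Cyp4f15, lower in knockout, and Cyp2d22, Cyp3a25 and Cyp2c70, higher in knockout. The median difference, knockout minus wildtype, was 0.02 over the members and -0.00 over all tested genes on the log2 scale. It was 0.06, -0.02 and 0.06 in pairs 1, 2 and 3, and 31 members had positive and 27 negative differences. Of the 54 members measured on all 6 arrays, 10 were higher in knockout in every pair, as were 11.9% of all genes, and 5 were lower in every pair, as were 11% of all genes. The groups did not overlap for 4 higher members (Cyp2d22, Cyp3a25, Cyp4f13 and Cyp2j11), against 2.28% of all genes, and for 1 lower member (Cyp4f15), against 1.09%.

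**Figure D1:**
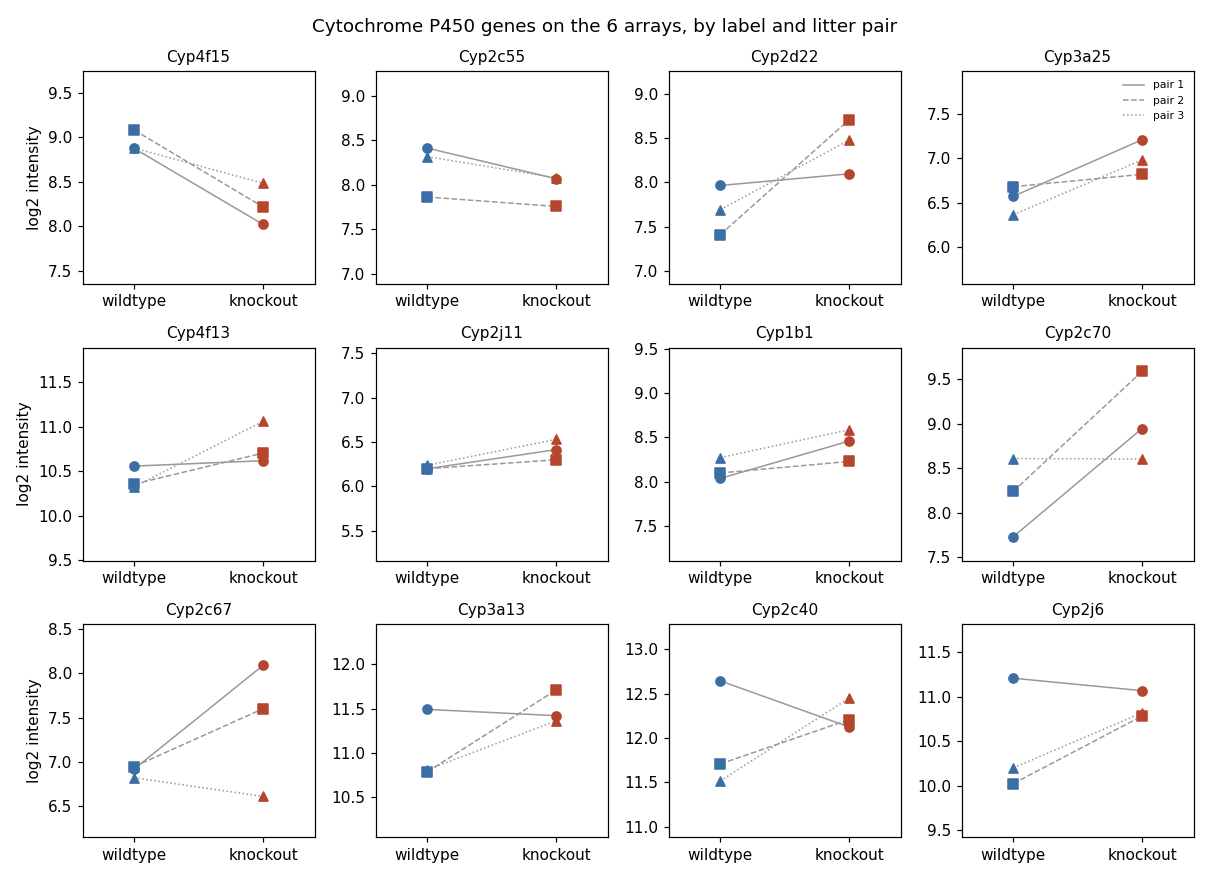
Log2 intensity of 12 P450 genes in wildtype (blue) and knockout (red) arrays, with 1 line per litter pair and every vertical axis spanning the same distance. Cyp4f15 is lower in knockout along all 3 lines, Cyp2d22 goes from 7.41 to 8.71 in pair 2, and the Cyp2c40 line of pair 1 runs against those of pairs 2 and 3.

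Cyp4f15, a family 4 enzyme that oxidises fatty acids and leukotrienes in mouse, gave the lowest p. Its log2 level was 8.02, 8.22 and 8.48 in knockout replicates 1, 2 and 3 and 8.88, 9.08 and 8.88 in the wildtype replicates of the same pairs. All 3 knockout arrays lay below all 3 wildtype arrays. The difference was -0.71 (SE 0.18, limma adjusted p = 1), and the pair differences were -0.86, -0.87 and -0.40. With any 1 of the 6 arrays left out, it ran from -0.83 to -0.60 and kept an unadjusted limma p under 0.05. Its neighbours on the chromosome went in both directions. Cyp4f13, another fatty acid hydroxylase, read 10.62, 10.70 and 11.06 in knockout and 10.56, 10.35 and 10.32 in wildtype, a difference of 0.38 (SE 0.18). The lowest knockout array of Cyp4f13 lay just above the highest wildtype array, and the excess was 0.06, 0.35 and 0.74 in pairs 1, 2 and 3. Cyp4f39 oxidises very long fatty acids of the barrier in mouse skin. It read 8.41, 9.38 and 8.62 in knockout and 8.55, 9.78 and 9.50 in wildtype. Its groups overlapped, although knockout was lower in each pair (-0.47, SE 0.39). A dimmer second probe of Cyp4f39, near background on 3 arrays, differed by 0.11, in the other direction. Cyp4f14, a leukotriene hydroxylase in mouse, differed by 0.33, with wildtype replicate 3 missing. Its dimmer second probe, measured on all 6 arrays and near background on 2, gave 0.03. Cyp4f16 differed by 0.05. Cyp4f18, a leukotriene hydroxylase of mouse neutrophils, lies on chromosome 8 and is not a neighbour of these genes, and it differed by -0.05.

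The Cyp2j genes encode epoxygenases of arachidonic acid. Cyp2j6, known from mouse intestine, read 11.07, 10.78 and 10.82 in knockout and 11.21, 10.02 and 10.20 in wildtype. The wildtype arrays of pairs 2 and 3 were the lowest of the 6, while that of pair 1 was the highest. Its difference was therefore 0.41 (SE 0.32) overall and -0.14, 0.76 and 0.62 by pair, and the second probe of the gene gave 0.46 overall. Cyp2j11 read 6.41, 6.30 and 6.53 in knockout and 6.20, 6.20 and 6.24 in wildtype (0.20, SE 0.14). Its groups did not overlap, but 2 of the 3 wildtype arrays were near background, so the size of its difference is uncertain. Cyp2j13 was higher by 0.14, 0.15 and 0.11 in the 3 pairs (0.14, SE 0.20), with 1 wildtype array near background. Cyp2j9 differed by 0.07, Cyp2j5 by -0.08 and Cyp2j12 by -0.26. Of the remaining fatty acid oxidisers, Cyp4a31 differed by 0.12 and Cyp4b1 by 0.11. A second Cyp4a31 probe, above background on all 6 arrays, gave -0.09, and another, near background on all 6, gave -0.19. Cyp4v3, with knockout replicate 3 missing, differed by -0.29, and by -0.06 with the litter pair as a block, since its complete pairs gave 0.10 and -0.22. The dimmer second probe of Cyp4v3, measured and above background on all 6 arrays, gave -0.26. Over the 15 tested genes of fatty acid and eicosanoid oxidation the median difference was 0.07, with 9 above 0, beside -0.00 over all tested genes.

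Among families 2 and 3, the xenobiotic oxidases, Cyp2d22 had the largest excess in knockout that all pairs shared. This gene, a mouse counterpart of the human drug-metabolising enzyme CYP2D6, read 8.10, 8.71 and 8.48 in knockout and 7.97, 7.41 and 7.69 in wildtype. All knockout arrays lay above all wildtype arrays, by the least margin in pair 1. The difference was 0.74 (SE 0.23, limma adjusted p = 1), with 0.13, 1.29 and 0.78 in pairs 1, 2 and 3. Without knockout replicate 2 or wildtype replicate 2 its unadjusted limma p was no longer under 0.05, and the difference ran from 0.60 to 0.90 over the arrays left out. Of its neighbours, Cyp2d26 read 12.89, 13.30 and 13.39 in knockout and 12.93, 12.87 and 12.57 in wildtype. The knockout arrays of pairs 2 and 3 were the highest, and the groups overlapped because pair 1 showed no excess (0.40, SE 0.20). Cyp2d9, a steroid hydroxylase in mouse liver, differed by 0.28 (SE 0.21), with pair differences of 0.03, 0.40 and 0.42. Its dimmer second probe, near background on 3 arrays, gave -0.08. Cyp2d34 differed by 0.21 (SE 0.21), with 0.00, 0.22 and 0.42 by pair. Cyp2d13 differed by 0.16 and Cyp2d12 by 0.05.

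All 6 tested Cyp2d genes, which lie side by side, thus had positive differences, with a median of 0.25 over the group and 0.01, 0.33 and 0.42 in pairs 1, 2 and 3. All 6 were also above 0 with median scaling, with the authors' per-sample intensities and with the series matrix values (medians 0.35, 0.34 and 0.35). Leaving out knockout replicate 1, wildtype replicate 2 or wildtype replicate 3 left 5 of 6 above 0, with medians of 0.17, 0.17 and 0.13. The median was 0.44 without wildtype replicate 1 and 0.19 with the median over a gene's probes. Cyp2d transcripts are close copies of each other, and whether a probe binds those of its neighbours was not tested, so the 6 are not independent. This neighbour group was singled out after its values were seen.

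Cyp3a25, a Cyp3a enzyme of mouse liver and intestine, read 7.21, 6.82 and 6.98 in knockout and 6.57, 6.68 and 6.37 in wildtype. Each knockout array lay above each wildtype array, by 0.64, 0.14 and 0.62 within the pairs. The difference was 0.46 (SE 0.17, limma adjusted p = 1), and its unadjusted limma p was not under 0.05 with median scaling or without knockout replicate 1, knockout replicate 3 or wildtype replicate 3. Cyp3a13, the main Cyp3a gene of mouse intestine, read 11.42, 11.71 and 11.36 in knockout and 11.49, 10.79 and 10.81 in wildtype. Pairs 2 and 3 were higher in knockout and pair 1 was level (-0.07, 0.92 and 0.55), for a difference of 0.47 (SE 0.24). Cyp3a11, the main hepatic Cyp3a, differed by -0.27, Cyp3a44 by -0.15 and Cyp3a16 by 0.03. Both Cyp3a11 and Cyp3a16 were near background on 2 or 3 arrays.

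The Cyp2c genes differed from pair to pair. Cyp2c70, which makes muricholic acids in mouse liver, read 8.95, 9.59 and 8.60 in knockout and 7.73, 8.24 and 8.61 in wildtype. Knockout was higher by more than 1 log2 unit in pairs 1 and 2 and level with wildtype in pair 3 (1.22, 1.35 and -0.01). The difference was 0.85 (SE 0.32, limma adjusted p = 1), and it had an unadjusted limma p under 0.05 only without knockout or wildtype replicate 3 among the fits with 1 array left out. Cyp2c67 read 8.09, 7.60 and 6.61 in knockout and 6.92, 6.95 and 6.82 in wildtype. Its 3 wildtype arrays were close together, and knockout replicate 1 was the highest array (0.54, SE 0.36). The difference was 0.21 without knockout replicate 1, 0.95 without knockout replicate 3 and 0.05 with the REML array weights described below. The liver markers differed by a median of 2.63, -0.32 and -0.44 in the 3 pairs, so pair 1, where Cyp2c67 differed most, also held the array with the most liver transcripts. In pair 2 both Cyp2c genes were higher in knockout, as were 4 of the 10 liver genes, while the liver median was below 0. The part of liver tissue in these differences was not tested.

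Cyp2c40, an arachidonic acid hydroxylase of mouse intestine, gave the widest spread of pair differences among the members. Its levels were 12.13, 12.21 and 12.45 in knockout and 12.64, 11.71 and 11.52 in wildtype. The wildtype array of pair 1 was the highest of the 6 and those of pairs 2 and 3 the lowest, with pair differences of -0.52, 0.50 and 0.93. The overall difference was 0.30 (SE 0.31), and a second probe gave 0.33. Single wildtype arrays moved the overall difference: it was 0.65, 0.18 and 0.08 when wildtype replicate 1, 2 or 3 was left out. Cyp2c55 read 8.07, 7.76 and 8.08 in knockout and 8.41, 7.86 and 8.32 in wildtype. Knockout was lower in each pair, but the groups overlapped (-0.23, SE 0.20). Cyp2c23, an epoxygenase of mouse kidney, differed by -0.09, Cyp2c37 by -0.09, Cyp2c39 by -0.03 and Cyp2c54 by -0.13.

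Cyp2s1, an epithelial P450 found outside the liver, read 11.76, 12.23 and 11.77 in knockout and 11.78, 12.31 and 12.46 in wildtype. The groups overlapped, and most of the difference of -0.26 (SE 0.24) came from pair 3 (-0.03, -0.08 and -0.69). Cyp2b19, an epoxygenase of keratinocytes, differed by -0.11 (SE 0.15), with -0.18, -0.01 and -0.14 by pair. Cyp2f2, the naphthalene-oxidising enzyme of lung club cells, read 6.87, 7.0 and 7.15 in knockout and 6.55, 7.83 and 6.92 in wildtype. Wildtype replicate 2 was its highest array, and pairs 1 and 3 went the other way (-0.09, SE 0.33). Cyp2g1, described with the batches below, differed by -0.41 (SE 1.08). Other differences in families 2 and 3 were 0.10 for Cyp2a4, a steroid hydroxylase, 0.05 for Cyp2a12, -0.05 for Cyp2b9, -0.07 for Cyp2b13 and -0.09 for Cyp2e1, the ethanol oxidase. Over the 28 tested genes of this role, the median difference was -0.00, with 14 above and 14 below 0.

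Family 1 holds the targets of the aryl hydrocarbon receptor. Cyp1b1, which oxidises estrogens and retinoids outside the liver, read 8.46, 8.23 and 8.59 in knockout and 8.04, 8.10 and 8.27 in wildtype. Knockout was higher in each pair (0.42, 0.13 and 0.31), although knockout replicate 2 lay below wildtype replicate 3 (0.29, SE 0.16). Cyp1a2, the caffeine oxidase of liver, differed by 0.29 (SE 0.20), with -0.17, 0.48 and 0.57 by pair. Cyp1a1, an inducible enzyme of many epithelia, differed by 0.03 (SE 0.14). The receptor gene Ahr differed by -0.13 (SE 0.33).

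P450 genes with fixed endogenous substrates differed little. Of the vitamin D genes, the 25-hydroxylase Cyp2r1 differed by 0.08, the 1-alpha-hydroxylase Cyp27b1 by -0.13 and the catabolic 24-hydroxylase Cyp24a1, with knockout replicate 3 missing, by -0.08. Among genes of cholesterol and bile acid oxidation, Cyp27a1, the sterol 27-hydroxylase, differed by 0.16 and Cyp39a1, an oxysterol hydroxylase, by -0.12. Cyp7a1, the rate-limiting enzyme of bile acid synthesis, differed by -0.11, Cyp7b1 by 0.06 and Cyp46a1, the cholesterol 24-hydroxylase of brain, by -0.06. Steroid hormone genes gave 0.01 for Cyp11b2, the aldosterone synthase, -0.02 for Cyp17a1, the 17-alpha-hydroxylase, and -0.04 for Cyp19a1, the aromatase, measured without wildtype replicate 2. All of these lay within 1 SE of 0. Blocking on litter pair turned the sign of both genes with a missing array, to 0.13 for Cyp19a1 and 0.06 for Cyp24a1. Cyp20a1, an orphan P450 with no known substrate, read 6.37, 6.58 and 6.20 in knockout and 6.82, 5.88 and 6.39 in wildtype. Wildtype replicate 2 was its lowest array and was near background, so pair 2 alone was above 0 (-0.46, 0.69 and -0.19).

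Too near background to be tested were 8 members. Cyp11a1, Cyp21a1, Cyp2a22, Cyp2c38 and Cyp8b1 were near background on all 6 arrays. Cyp2b10, Cyp2c29 and Cyp4a14 read above it on 1 or 2 arrays. These include steroid hormone enzymes of adrenal and gonad (Cyp11a1 and Cyp21a1), the bile acid 12-alpha-hydroxylase Cyp8b1, and Cyp2b10, the standard target of the receptor CAR. Of the 58 tested members, 9 were near background on 1 to 3 arrays, so the size of their differences is uncertain. They were Cyp2j11, Cyp2j13, Cyp3a11, Cyp3a16, Cyp20a1, Cyp17a1, Cyp7a1, Cyp2c54 and Cyp2c39.

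**Figure D2:**
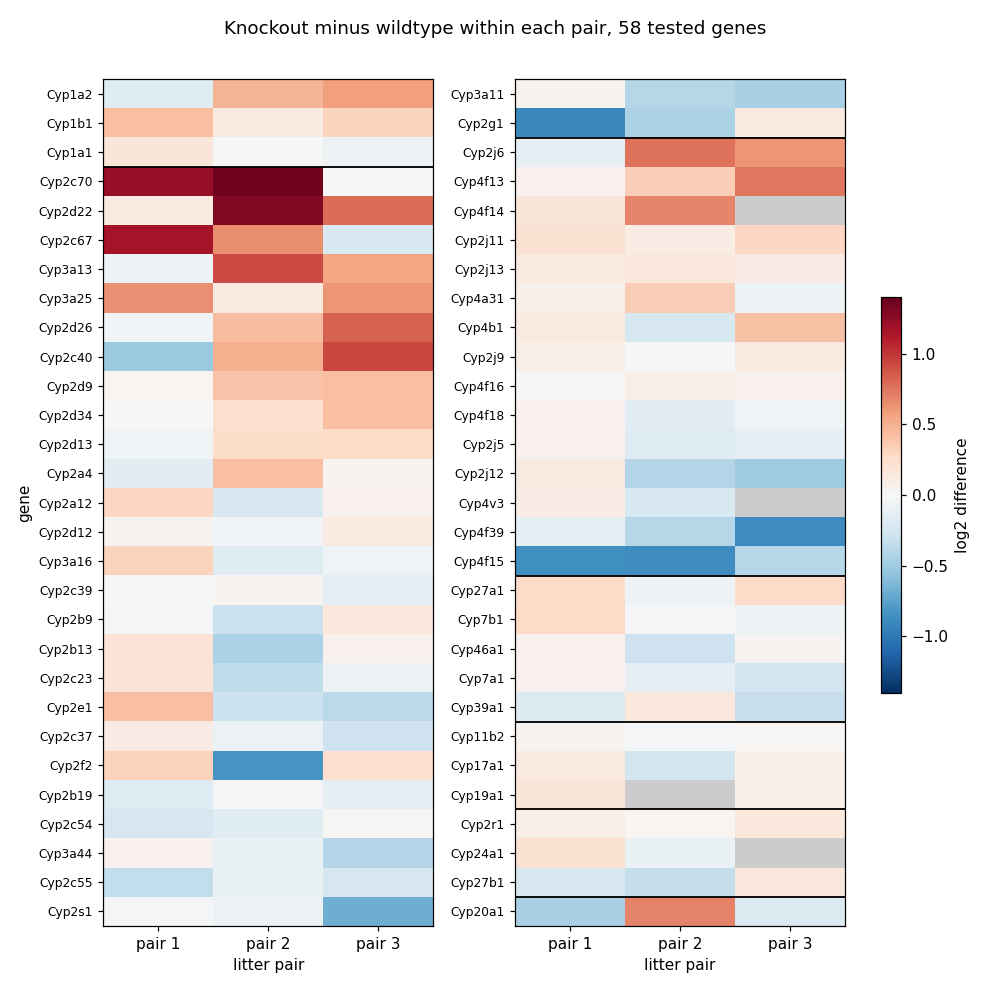
Log2 difference, knockout minus wildtype, in each litter pair for the 58 tested P450 genes, with rows grouped by role between black lines (from the top left: family 1, xenobiotic, fatty acid, cholesterol and bile acid, steroid hormone, vitamin D, orphan) and red for higher in knockout. Grey cells have a missing array, and the colour of Cyp2c70 goes from 1.22 and 1.35 in pairs 1 and 2 to -0.01 in pair 3.

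The litter pairs of batch B differed from the pair of batch A in several of these genes. Within batch B alone, 2 arrays against 2, 14 of 57 members had an unadjusted limma p under 0.05, against 12% of all genes, and 0 had an adjusted p under 0.05. Of the 14, 9 were higher and 5 lower in knockout. The 9 were Cyp2d22, Cyp2j6, Cyp2c40, Cyp3a13, Cyp2d26, Cyp1a2, Cyp4f13, Cyp2d9 and Cyp3a25, and the 5 were Cyp4f15, Cyp2j12, Cyp3a11, Cyp2e1 and Cyp4f39. Cyp2d22 had the lowest adjusted p, 0.0924 in limma, with a difference of 1.04 (SE 0.16). Cyp2c40 differed there by 0.72, Cyp3a13 by 0.74, Cyp2j6 by 0.69 and Cyp2d26 by 0.63. For Cyp2c40, Cyp3a13, Cyp2j6 and Cyp2d26 the value lies above that over all 6 arrays. It leaves out pair 1, where each of these genes was lower in knockout. Cyp2d22 was higher in knockout in pair 1 too, but only by 0.13. Batch A has 1 array per label and allows no test. Among the 54 complete members, 17 were higher in knockout in both pairs 2 and 3, against 25.5% of all genes, and 17 were lower in both, against 29.5%. With batch as a block in limma, 8 of 58 members had an unadjusted p under 0.05, against 5.8% of all genes. Blocking on litter pair in place of batch gave 5 of 58, against 4.52%.

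One setting ended the count of 0, and it was added after the data were seen. With limma array weights fitted by REML on the 15667 genes measured on every array, 9 of 58 members had an adjusted p under 0.05, as had 3.94% of all genes (660). They were Cyp2d22, Cyp2d26, Cyp2c40, Cyp4f13, Cyp3a13, Cyp3a25, Cyp2j6 and Cyp1a2, higher in knockout, and Cyp4f15, lower. Their adjusted p in limma ran from 0.0122 for Cyp2d22 to 0.0456 for Cyp1a2. This fit did not converge, and its largest weight was 7.035, for wildtype replicate 3. The weights of pair 1 were 0.209 and 0.168, below those of the other arrays. The gene by gene weights that limma uses by default where values are missing called 0 members, with a lowest adjusted p of 0.0893.

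Markers of intestinal epithelium were higher in knockout in the same pairs. Of 16 listed genes 13 were tested, and 11 were higher in knockout, by a median of 0.57 overall and of -0.10, 1.16 and 0.67 in pairs 1, 2 and 3. Their log2 summed level lay between 16.897 and 16.997 in knockout, at 16.98 in wildtype replicate 1 and at 16.31 and 16.28 in wildtype replicates 2 and 3. These sums include the saturated probes of Lgals4 and Apoa4, and that of wildtype replicate 3 lacks Guca2b, so their size is uncertain. The wildtype arrays of pairs 2 and 3 were thus the low ones, as for Cyp3a13, Cyp2c40 and Cyp2j6. Other members differed from this, and Cyp2s1 was highest in wildtype replicates 2 and 3 (12.31 and 12.46). Over all tested members the pair medians were 0.06, -0.02 and 0.06. Slc5a1, the intestinal glucose transporter, differed by 0.82 (SE 0.24) and Guca2b, the uroguanylin gene, by 1.08 (SE 0.25), with wildtype replicate 3 missing. Of 11 gastric epithelium genes 6 were lower, with a median of -0.04 overall and 0.03, -0.01 and -0.48 by pair. Tff2, a trefoil peptide of gastric mucous cells, differed by -1.43 (SE 0.25), with 1 array saturated, which leaves the size uncertain, and Gkn3 by -0.76 (SE 0.29). Probes of Tff1 among the gastric and Lgals4 among the intestinal genes were saturated on all 6 arrays, so their differences, which these medians include, are not measured. Those of the gastric genes Gkn2 and Gkn1 were saturated on 5 arrays and 1 array, and that of the intestinal gene Apoa4 on 3. The size of these differences is uncertain too. The liver list had an overall median of 0.50, and the lists of smooth muscle, exocrine pancreas, steroid cells and squamous forestomach had medians of 0.00, -0.04, 0.02 and -0.11. No gene of these lists passed an adjusted p of 0.05 in limma. The part of unequal shares of intestine and stomach in the P450 differences was not tested.

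**Figure D3:**
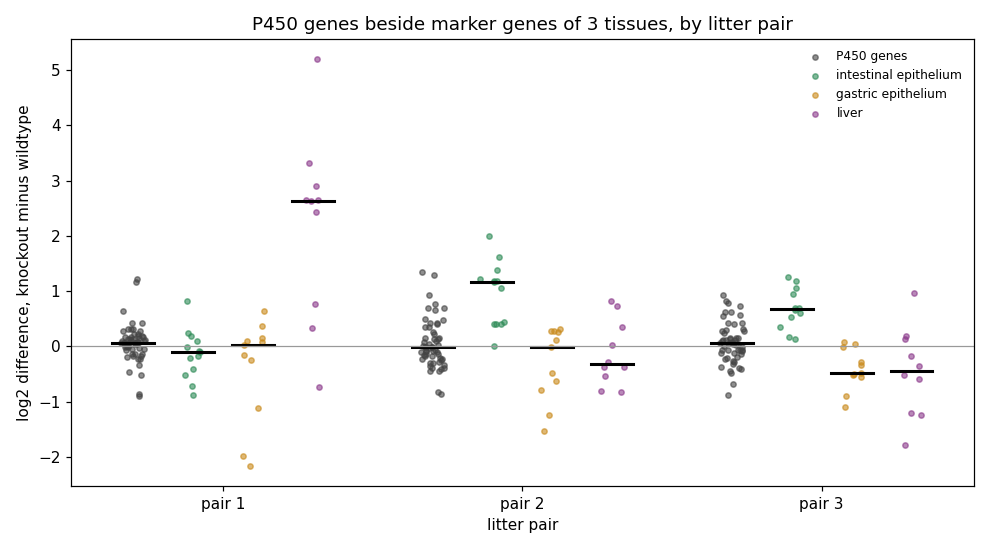
Log2 difference, knockout minus wildtype, by litter pair for P450 genes (grey) and for marker genes of intestinal epithelium, gastric epithelium and liver, each point a gene and each bar the median. Intestinal markers sit around -0.10 in pair 1 and 1.16 in pair 2, liver markers around 2.63 in pair 1, and the P450 medians stay between -0.02 and 0.06.

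Genes that serve the P450 enzymes were read from lists. The electron partners had a median difference of 0.11 over 7 tested genes, 5 of them above 0, and Por, the oxidoreductase, differed by 0.11 (SE 0.21). Pgrmc2 and Cyb5r3, partners of microsomal P450 enzymes, differed by 0.34 and 0.30. The heme list holds genes of heme synthesis and Hmox1, the heme oxygenase gene, which differed by 0.20. Its median was 0.17, with 7 of 8 above 0, but the pair medians were -0.01, 0.65 and -0.12, so pair 2 alone was above 0. Receptors and regulators of P450 genes had a median of 0.15, with 10 of 13 above 0 and pair medians of -0.00, 0.32 and 0.22. Nr5a2, the receptor LRH-1 of bile acid and gut steroid synthesis, differed by 0.65 (SE 0.20), with 0.22, 0.70 and 1.04 by pair, and Nr1h3, the oxysterol receptor LXR alpha, by 0.56 (SE 0.25). Hnf4a, whose protein binds sites with the CAAAGT core, differed by 0.18 (SE 0.16). Conjugating and other detoxifying enzymes had a median of 0.16 over 26 genes, with 15 above 0. The pair medians were -0.10, 0.43 and 0.04, and pair 2 had 22 of the 26 above 0. Ces2e, an intestinal carboxylesterase, differed by 0.75 (SE 0.27) and Ephx2, the soluble epoxide hydrolase that opens the products of Cyp2c and Cyp2j enzymes, by 0.66 (SE 0.30). P450 genes outside the symbol pattern had a median of -0.05 over 4 genes, with Tbxas1, the thromboxane synthase, at 0.49 and Ptgis, the prostacyclin synthase, at -0.22. None of these genes passed an adjusted p of 0.05 in limma.

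A few members differed far more between batches than between labels. Cyp2g1, an enzyme of olfactory mucosa in rodents, read 7.26, 10.22 and 10.88 in knockout and 8.17, 10.66 and 10.75 in wildtype. Both arrays of pair 1 were the low ones, with a mean difference from pairs 2 and 3 of -2.91, against a label difference of -0.41 (SE 1.08). Cyp2j12 read 11.32, 8.49 and 8.61 in knockout and 11.20, 8.91 and 9.10 in wildtype, with both arrays of pair 1 higher, by a mean of 2.48. The dimmer second probe of Cyp2c40 read 11.22 and 11.97 in pair 1 and between 7.85 and 9.06 in pairs 2 and 3, a gap that its brighter probe did not show. Cyp3a44 differed from pairs 2 and 3 by -1.26 in pair 1. Of 54 members, 1 (Cyp2j12) was at least 1 log2 unit higher in pair 1 than in pairs 2 and 3, against 4.61% of all genes, and 2 (Cyp2g1 and Cyp3a44) were at least 1 lower, against 4.05%. With pair 1 the only litter of batch A, litter and batch cannot be told apart. The exocrine pancreas markers had log2 summed levels of 12.04 and 12.72 in pair 1 and between 10.39 and 10.83 in pairs 2 and 3. The part of such tissue in the gaps between batches was not tested.

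**Figure D4:**
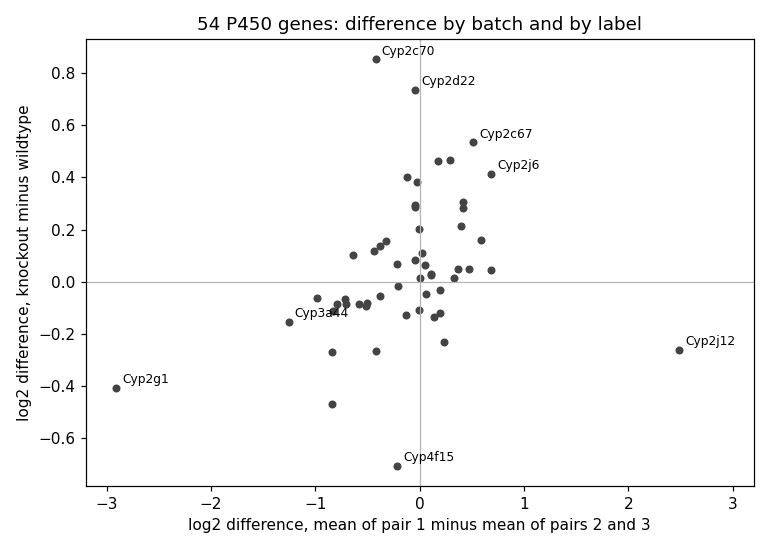
Log2 difference between the mean of pair 1 and the mean of pairs 2 and 3 (horizontal axis) and between knockout and wildtype (vertical axis) for the 54 P450 genes measured on all 6 arrays, each point a gene. Cyp2g1 at -2.91 and Cyp2j12 at 2.48 lie farthest to the sides, and Cyp2c70 at 0.85 and Cyp4f15 at -0.71 farthest up and down.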

How the data were processed

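Total RNA of 6 pylorus samples was measured on 6 CodeLink arrays. Per the file headers, the authors exported spot mean and local background intensity with CodeLink Expression Analysis 5.0 for all 6 arrays. Separate expression reports of pair 1 (batch A), not used for intensities, name version 4.1. The deposited normalized intensity is the spot less its background over the array's median, and the series matrix values lay within 1% of it for over 93% of probes. Here, spots were corrected with normexp (offset 50) in limma 3.58.1 (R 4.3.3), quantile normalized over 34967 gene probes and set to log2. Spots flagged as masked, irregular or contaminated were set missing. Probes were named by gene ID, or by RefSeq accession where that failed; 12172 had no name and 681 several. Testing required a probe to read above the near-background flag on at least 3 arrays and to have at least 2 values per group. The probe of highest mean signal stood for its gene. The fit was lmFit and eBayes without a block over the 6 arrays, with Benjamini-Hochberg adjustment over 16764 genes at 0.05; it was tested on simulated data.

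Named in full are up to 8 members per direction with 1 sign in all pairs by smallest p, the 8 with the widest range of pair differences, and Cyp2c55; 2 genes per list may be named by largest moderated statistic, and Por, Ahr, Hnf4a and Alb were named after their values were seen, as were Cyp2j6, Cyp2d26, Cyp2j12 and Cyp3a44 with levels. Members and lists were chosen with earlier results of these data known. Same-numbered samples share a litter by their animal codes. Their deviations from the group means correlated at 0.784, 0.406 and 0.576 in pairs 1, 2 and 3. Within batch B, each knockout replicate correlated more with the wildtype of the other pair. Knockout replicate 2 with wildtype replicate 3 gave 0.535, and knockout replicate 3 with wildtype replicate 2 gave 0.635. The correlations thus set pair 1 apart from batch B, while pairs 2 and 3 rest on the animal codes alone. The number of arrays limits the precision. Signals of close P450 copies cannot be told apart where a probe binds both. Gene order and promoters came from RefSeq (GRCm38.p6).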

Additional observations from a re-analysis of the deposited data

How the results depend on the processing

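No P450 gene had an adjusted p under 0.05 in limma with any normalization, filter, block, probe choice, default weighting or left-out array, and over all genes the count was 0 too. With REML array weights, added after the data were seen, the counts were 9 and 660, and Cyp2c40 (0.82), Cyp2d22 (0.84), Cyp3a13 (0.62), Cyp3a25 (0.55), Cyp4f13 (0.63) and Cyp4f15 (-0.50) passed; the pancreas and gastric medians were 0.050 and -0.35 there. The cause was not tested. With the litter pair as a replicate block, the median of the P450 genes was 0.04 and 5 of 58 had an unadjusted limma p under 0.05, against 4 without it, and the block changed no call at an adjusted p. Unadjusted counts over all genes were 757 with that block, 972 with batch as a block, 1940 within batch B and 1749 with default weights, against 192. Of the named members, 3 changed sign. Cyp20a1 was -0.0048 with the authors' intensities, -0.0035 with the matrix values, -0.073 with median scaling, -0.054 with REML weights and -0.23 to 0.24 with 1 array left out. Cyp2f2 was 0.093 with REML weights and ran from -0.37 to 0.27 with 1 array left out, and Cyp2g1 from -1.25 to 0.69. Among the left-out arrays, Cyp2f2 was above 0 (0.27) only without wildtype replicate 2, and Cyp2g1 (0.69 and 0.04) without knockout replicate 1 or wildtype replicate 3. Members with 1 sign in all pairs numbered 15, or 35 within batch B and 23 to 34 with 1 array left out, where fewer pairs remain. The P450 median was -0.045 within batch B and 0.0077 to 0.094 with 1 array left out. The median of all genes was 0.035 with the authors' intensities, 0.036 with the matrix values, 0.030 with median scaling and -0.013 to 0.023 with 1 array left out. The pancreas median was 0.022 with default array weights. With 1 array left out, medians ran from -0.59 to 0.64 for pancreas, from -0.076 to 0.20 for steroid cells, from -0.14 to 0.081 for P450 genes outside the pattern, from 0.075 to 0.32 for receptors and from -0.25 to 0.027 for smooth muscle. Signal near background limits 9 tested members, whose differences may be understated.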

Other observations

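Probes that name several P450 genes stood outside the comparisons. The probe shared by Cyp2d12, Cyp2d34, Cyp2d26, Cyp2d13, Cyp2d22 and Cyp2d10 read 10.64, 11.18 and 11.30 in knockout replicates 1, 2 and 3 and 10.83, 10.74 and 10.38 in the wildtype replicates. Its mean difference was 0.39, with -0.19, 0.44 and 0.92 by pair, so pairs 2 and 3 were higher in knockout and pair 1 was not. The first of 2 probes shared by Cyp4a12a and Cyp4a12b, fatty acid hydroxylases of mouse, read 7.03, 7.05 and 7.05 in knockout and 6.54, 6.81 and 6.59 in wildtype. Those groups did not overlap, while the other probe of the same genes differed by 0.10. The probe shared by Cyp4a31 and Cyp4a10 differed by 0.07, that of Cyp2a5 and Cyp2a4 by -0.01, and that of Cyp2c54, Cyp2c50 and Cyp2c37 was near background on all 6 arrays.

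Cyp51, the sterol demethylase of cholesterol synthesis, differed by -0.05 and 0.01 on its probes. The pseudogene Cyp2d37-ps, which lies outside the symbol pattern, read 8.39, 9.27 and 9.03 in knockout and 8.22, 9.78 and 9.39 in wildtype, a mean difference of -0.23, unlike the 6 Cyp2d genes tested. Apart from the brighter Cyp51 probe, at -0.05, which is among the tested genes of the list outside the symbol pattern, no value of this part was tested.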
